A study of Mus musculus with 8 samples.

Results

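An AIM-/- liver sample was set against an AIM+/+ liver sample, both on normal chow, before any high-fat diet. AIM, the apoptosis inhibitor of macrophage, is encoded by Cd5l and released by tissue macrophages, in the liver by Kupffer cells. The pair is 2 of the 8 arrays of the study, which also has 1 array of each genotype at 6, 12 and 20 weeks of high-fat diet. All samples are labelled C57Bl/6 liver, and the hour of sampling, the feeding state, the age and how the null allele was made were not given in the sources used here. Each group is 1 array, so a difference on chow has no replicate check and is reported as a size with no p-value of its own. Nothing tells whether an array held 1 animal or a pool, so the difference between genotypes cannot be told apart from that between these livers.

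Genes were kept if their probe was not a control and passed the scanner software's mark for a signal well above background on either chow array. Of the 14490 genes kept, 12420 have a symbol and 12713 were well above background on both arrays. Signals are given as log2 values relative to each array's 75th percentile, so that 0 is the 75th percentile and 1 unit is a doubling. Differences are AIM-/- minus AIM+/+. All 4 AIM+/+ arrays share one slide and all 4 AIM-/- arrays the other, so a slide effect and a genotype effect cannot be told apart. Between 18588 and 21119 of 41174 probes were well above background per array. On the chow pair, 126 probes that were printed 10 times per array and were well above background on both had a median standard deviation of 0.08 for a difference between single spots, which measures the printing and scanning only.

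The liver stores and releases glucose, makes fatty acids and cholesterol and burns fat, and it moves between these tasks with feeding, fasting and the hour of day. Insulin and sterol supply act on the enzymes of fat and cholesterol synthesis, fasting hormones act on glucose release and fat oxidation, and a circadian clock in each hepatocyte sets the time for many of these genes. In that clock, CLOCK and BMAL1 (Arntl) switch on genes with E-boxes in their promoters, among them the Per and Cry genes, whose products then shut CLOCK and BMAL1 off. The E-box genes Dbp and Tef drive a further tier through D-boxes, where NFIL3 opposes them, and REV-ERB and ROR receptors act on Arntl and Nfil3 through ROR elements.

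Cd5l was the largest difference among genes with signal on both arrays. Its probe, at chr3:87456828-87456887 (mm8), read 5.37 on the AIM+/+ chow array and -1.64 on the AIM-/- chow array, a difference of -7.02 or 130-fold. The AIM-/- array was still marked as well above background for it. Whether the probe lies in the deleted part was not given in the sources used here. On the diet the AIM+/+ arrays read 6.42, 6.75 and 6.22 and the AIM-/- arrays -1.11, -0.72 and -1.15, so the labels of all 4 pairs were matched by this gene.

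At least 2-fold apart on chow were 625 genes higher in AIM-/- (4.31% of those kept) and 990 lower (6.83%). Most of these rest on the background: 1077 of the 1615 were well above background on 1 of both arrays. Of these, 226 higher and 254 lower stayed at least 2-fold apart once the dim array was set to the lowest signal it could tell from background. Among the 12713 genes well above background on both, 259 were at least 2-fold higher (2.04%) and 279 at least 2-fold lower (2.19%), and 43 and 34 were at least 4-fold apart. The median difference of these genes was 0.02, with quartiles at -0.19 and 0.22. Of the 103 such genes with a further probe above background, 99 had every further probe in the same direction and 50 had every further probe at least 2-fold apart that way.

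**Figure D1:**
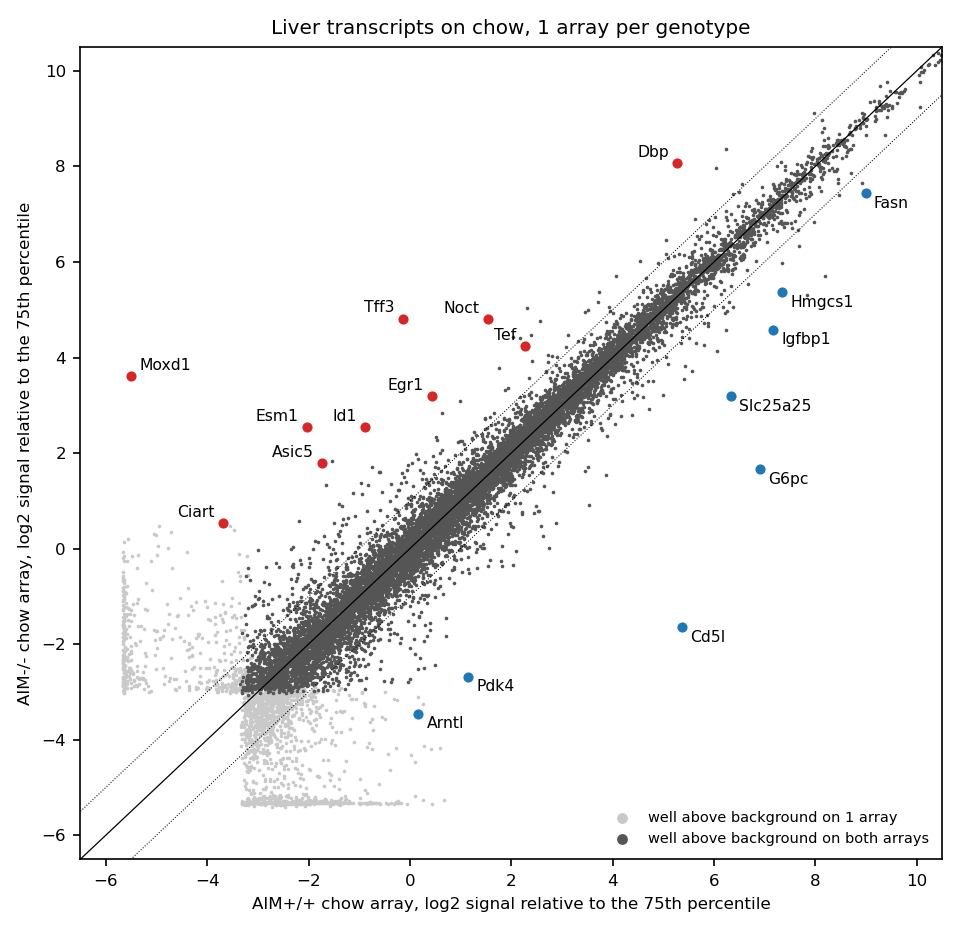
Each point is a gene kept on chow, with its log2 signal relative to the array's 75th percentile on the AIM+/+ array (x axis) and the AIM-/- array (y axis), 1 array each. The solid line marks equal signal and the dotted lines 2-fold, dark points are well above background on both arrays, and the named genes lie far off the line, Cd5l and G6pc below it and Tff3, Dbp and Noct above it.

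Clock genes driven through E-boxes and D-boxes were higher in the AIM-/- liver. Of the 9 with signal on both arrays 9 were higher, 6 of them at least 2-fold (2.04% of all such genes), with a median of 1.08. Ciart and the kept probe of Bhlhe41 passed through the AIM-/- array alone. Both genes are given apart, and with both counted the list's median was 1.40. Of the 4 genes with signal on both arrays in the list that holds Arntl, Clock, Nfil3 and Rora, 3 were lower, with a median of -0.49, and Nfil3 was the 1 at least 2-fold lower (2.19% of all such genes). With Arntl, which passed through the AIM+/+ array alone, that median was -0.87. The probes of Npas2, Cry1 and Per3 did not pass on either array.

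Dbp, a D-box activator whose level follows the clock in liver, read 5.28 on AIM+/+ chow and 8.07 on AIM-/- chow, 6.90-fold apart. The 6 diet arrays lay between 6.92 and 7.60. The AIM+/+ chow array was thus below all other arrays and the AIM-/- chow array above all, by a smaller step. Tef, its relative, read 2.27 and 4.23, with 2.95 to 3.82 on the diet, and a further probe well above background on both arrays had a difference of 1.34. Ciart, a repressor of CLOCK and BMAL1, was not well above background in AIM+/+ (-3.69) and read 0.53 in AIM-/-, at least 14.7-fold higher, with -2.55 to -0.02 on the diet.

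Arntl, which encodes BMAL1, showed the mirror image. It read 0.17 on the AIM+/+ chow array and -3.46 on the AIM-/- one, where it was not well above background, so that it was at least 9.59-fold lower. The 6 diet arrays lay between -3.70 and -1.28, so that here only the AIM+/+ chow array was outside. Clock, its partner, read 1.07 and 0.20, with -0.06 to 0.77 on the diet. Nfil3, the D-box repressor, read 2.55 and 0.80, 3.37-fold lower in AIM-/-, and here both chow arrays lay outside the diet arrays (1.16 to 2.14), one on each side. Rora, a ROR receptor, differed by 0.24.

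The Period and REV-ERB genes were also higher in AIM-/-, by less. Per1 read 0.59 and 1.99 and Per2 -1.71 and -0.22, differences of 1.40 and 1.49. Per1 lay within the range of the diet arrays (0.05 to 2.34) on both chow arrays, while Per2 in AIM+/+ was below theirs (-0.84 to 0.15). Nr1d2 (REV-ERB beta) differed by 1.08, Cry2 by 1.06 and Nr1d1 (REV-ERB alpha) by 0.66. Hlf and Bhlhe40 differed by 0.41 and 0.30. For Bhlhe41 the probes disagreed, so no direction is given. The one kept differed by 2.69 and was well above background in AIM-/- alone. The other was brighter in AIM+/+ by 5.25 and was well above background there alone. Over the 9 genes with signal on both arrays the AIM+/+ chow array was below every diet array in 6 and the AIM-/- chow array above every diet array in 5. Of all 12713 such genes, the AIM+/+ chow array alone lay outside the diet range in 1923, the AIM-/- one alone in 2650 and both in 3117. These counts for all genes were not split by side.

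Some of these promoters carry the motifs through which the clock acts, and they are shown because their genes stood apart on chow. The sequences are RefSeq promoters (GRCm38.p6, 250 bases before to 50 after the start), 16 of the 19 core clock genes were found in that table, and each is printed 5′ to 3′ on the gene's strand as a stretch before the start with the motif in capitals. Searched on both strands were the E-box CACGTG, the D-boxes TTATGTAA and TTATGCAA and the ROR elements TAGGTCA and TGGGTCA. Nfil3 carries the ROR element on the opposite strand, where it reads TGACCTA here.
Ciart, chr3:95882258-95882358, minus strand, 3 E-boxes: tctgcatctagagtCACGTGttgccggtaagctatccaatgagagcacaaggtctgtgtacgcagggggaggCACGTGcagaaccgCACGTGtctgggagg
Per1, chr11:69098769-69098939, plus strand, an E-box and a D-box: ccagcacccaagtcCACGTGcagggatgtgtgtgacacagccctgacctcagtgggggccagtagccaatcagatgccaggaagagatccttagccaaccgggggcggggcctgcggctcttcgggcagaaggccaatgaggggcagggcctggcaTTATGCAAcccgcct
Tef, chr15:81802518-81802568, plus strand, an E-box: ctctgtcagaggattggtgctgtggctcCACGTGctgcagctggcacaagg
Tef, chr15:81811259-81811309, plus strand, an E-box before its other start: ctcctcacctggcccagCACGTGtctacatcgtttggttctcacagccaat
Nfil3, chr13:52981040-52981084, minus strand, a ROR element: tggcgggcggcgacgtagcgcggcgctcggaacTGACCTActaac

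Of the 21 promoters of these 16 genes, 6 held the E-box, against 7.15% of all 32851 promoters in the table. The D-box TTATGTAA was in 1 (0.938% of all), TTATGCAA in 1 (0.743%), TAGGTCA in 2 (2.61%) and TGGGTCA in 0 (3.98%). Within this window Ciart has E-boxes at -116, -58 and -44, Per1 an E-box at -166 and a D-box at -24, and Nfil3 the ROR element at -12, counted from the start. No motif was found in the window for Dbp, Nr1d1, Nr1d2 or Cry2, and Per2 had no entry in the table.

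Genes that follow the clock in liver were higher too in most cases, with 10 of 13 measured members positive. Their median was 0.69, against 0.02 over all genes with signal on both arrays. At least 2-fold higher were 3 and lower 1, against 2.04% and 2.19% of all such genes. Noct, the NADPH phosphatase nocturnin, read 1.55 and 4.80 (9.54-fold higher in AIM-/-), against 2.49 to 4.31 on the diet, so both chow arrays lay outside. Upp2, a uridine phosphorylase, was higher by 2.39, and the deubiquitinase gene Usp2 by 2.20. Por and Alas1, which serve the cytochromes P450, differed by 0.96 and 0.69. Elovl3, a fatty acid elongase that is both clock-driven and male-biased, was lower by 1.66 on the log2 scale (6.24 and 4.58). Cirbp and Rbm3, the cold-inducible RNA-binding proteins, differed by 0.39 and 0.34, and none of 11 heat shock and cold-inducible genes was 2-fold apart.

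**Figure D2:**
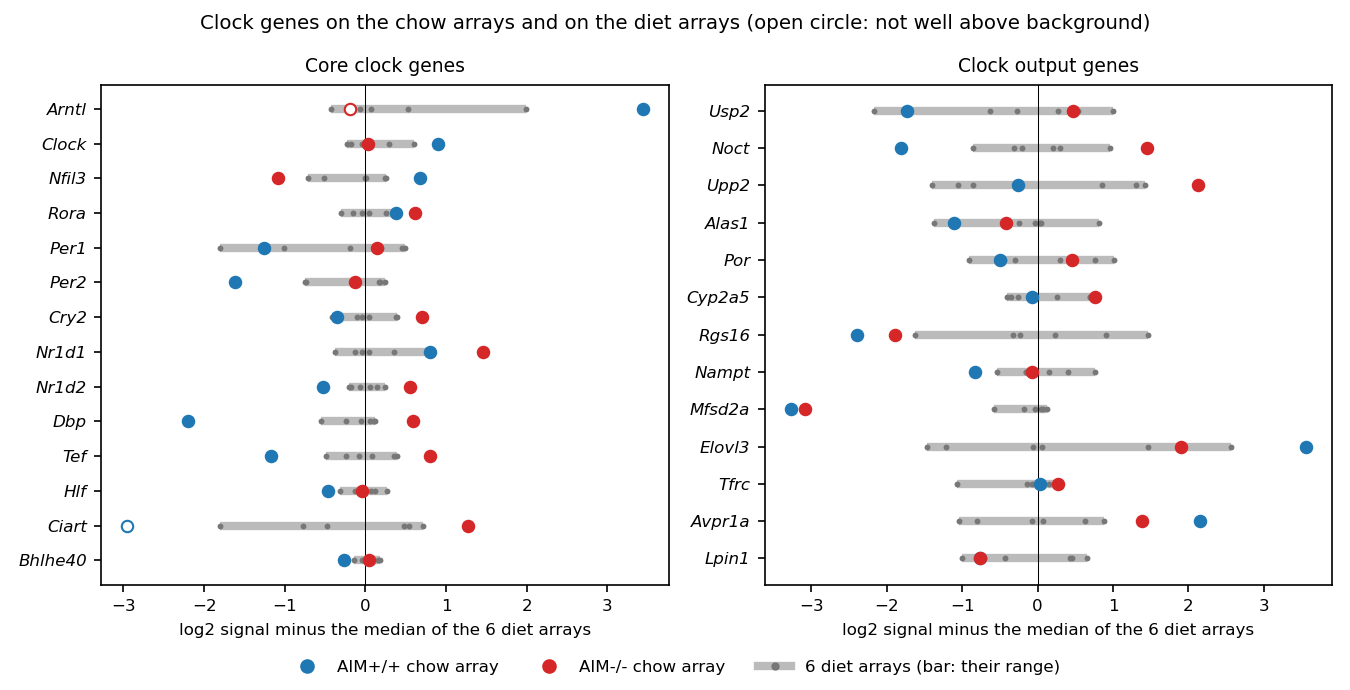
Clock genes on the chow arrays (blue AIM+/+, red AIM-/-; open circles are not well above background) and on the 6 diet arrays (small points, with a bar for their range), as log2 signal minus the median of the diet arrays. For Dbp, Tef, Nr1d2, Ciart and Noct the AIM+/+ chow array lies left of the bar and the AIM-/- one right of it, and for Arntl the AIM+/+ array lies right of the bar while the AIM-/- one lies within it.

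G6pc, which encodes the enzyme of the last step of glucose release, had the largest difference on the lower side after Cd5l among genes with signal on both arrays. It read 6.91 on AIM+/+ chow and 1.67 on AIM-/- chow (signal intensities of 30558 and 899), 37.9-fold lower, and the 6 diet arrays lay between 4.30 and 6.19. Both chow arrays were outside that range, the AIM-/- one by far the more. No other of the 17 measured genes of gluconeogenesis was 2-fold apart and their median was 0.13. Pck2 differed by -0.97, the glucose-6-phosphate transporter Slc37a4 by -0.39, Fbp1 by 0.20 and Pcx, pyruvate carboxylase, by -0.21. The regulators Ppargc1a, Foxo1 and Crtc2 differed by 0.09, 0.04 and 0.52, and the serine dehydratase Sds by 0.97. Pck1 was not analysed here.

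Of 16 regulators and hormones of fasting with signal on both arrays, 4 were at least 2-fold lower in AIM-/- and 0 higher, against 2.19% and 2.04% of all such genes. Pdk4, the kinase that keeps pyruvate out of oxidation in the fasted state, read 1.15 and -2.69, 14.3-fold lower, with -1.24 to 1.82 on the diet. Igfbp1, an insulin-repressed binding protein of IGF, read 7.17 and 4.59, 5.99-fold lower, but both values lay within those of the diet arrays (4.50 to 7.39). Insig2, whose liver form is repressed by insulin, read 5.57 and 3.72, and Angptl4, a fasting-induced inhibitor of lipoprotein lipase, 6.38 and 5.05. In both genes the AIM-/- chow array was below every diet array, and for Angptl4 the AIM+/+ chow array was too.

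Fgf21, the fasting hormone of the liver, and Cdkn1a, the cell cycle inhibitor p21, were not well above background in AIM-/- and were at least 3.83-fold and at least 3.30-fold lower, though a second probe of Fgf21, at background on both arrays, differed by -0.38. Both passed through the AIM+/+ array alone. The median of the 16 was 0.13, since 9 were higher, all by less than 2-fold: Ppara, the receptor that drives fat oxidation, differed by 0.91, Trib1 by 0.68 and Igfbp2 by 0.62. The other members with signal on both arrays ran from -0.45 (Txnip) to 0.56 (Lpin2, with -0.37 on a further probe), with 0.37 for the insulin receptor Insr, 0.19 for Creb3l3 and -0.10 for Cebpb. Of 11 glucocorticoid-responsive genes with signal on both arrays 3 were at least 2-fold higher (2.04% of all such genes), the metallothioneins Mt1 (2.30 and 5.04) and Mt2 (2.57 and 4.76) and Per1, and 1 lower (2.19%), Dusp1 (-1.21). Tat and Fkbp5, also of that list, differed by 0.07 and -0.71, and the other probes of Fkbp5 stood the opposite way.

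Lipogenesis genes were lower in the AIM-/- liver, 7 of 23 by at least 2-fold and 0 higher (2.19% and 2.04% of all genes with signal on both arrays), with a median of -0.50. Acacb, the acetyl-CoA carboxylase at the mitochondrial surface, read 4.99 and 3.21, and Me1, malic enzyme, 4.72 and 2.92, each 1.79 lower. Acss2 was lower by 1.60 and Fasn, fatty acid synthase, by 1.56 on the log2 scale (8.99 and 7.43). Elovl6, Thrsp and Acly were lower by 1.43, 1.38 and 1.24.

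In 6 of these 7 genes the AIM+/+ chow array lay within the range of the 6 diet arrays while the AIM-/- one lay below it, and for Acss2 both lay outside. Choosing genes as lower on chow favours a low place of the AIM-/- array. Over the 23 genes the AIM-/- chow array was below every diet array in 15 and the AIM+/+ chow array in 4. Of all 12713 genes with signal on both arrays, the AIM-/- one alone lay outside the diet range, on either side, in 2650. The AIM+/+ one alone did so in 1923 and both in 3117. The genes of the transcription factors over this program were close to equal, with 0.16 for Srebf1 and -0.07 for Mlxipl (ChREBP). So were Scd1 (0.03), Dgat1 (0.01) and Dgat2 (0.33), and the desaturases Fads1 and Fads2 were higher by 0.70 and 0.66.

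Cholesterol synthesis and uptake split into 2 parts. Enzymes of the pathway were lower, 8 of the 25 list members by at least 2-fold and 0 higher (2.19% and 2.04% of all genes with signal on both arrays). The list median was -0.59. The 8 were Hmgcs1 (7.34 and 5.37, 3.93-fold lower), Mvd (-1.64), Fdps (-1.36), Nsdhl (-1.35), Idi1 (-1.21), Dhcr7 (-1.07), Sqle (-1.07) and Hsd17b7 (-1.05). In each of these 8 the AIM-/- chow array was below every diet array, a place that choosing them as lower on chow favours. For Fdps a dimmer probe with signal on both arrays stood the other way (1.49 and 2.17), and for Nsdhl a further probe differed by -0.44. Other sterol-responsive genes stood the opposite way, without reaching 2-fold. Among these were Stard4, a carrier of cholesterol between membranes (0.67), and Insig1, which holds the sterol sensor in the endoplasmic reticulum (0.47). Srebf2, which encodes their common activator, differed by -0.47.

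In glycolysis and glycogen metabolism 3 of 22 genes were at least 2-fold lower and 1 was at least 2-fold higher, with a median of -0.24. Of all genes with signal on both arrays, 2.19% were at least 2-fold lower and 2.04% higher. Pklr, liver pyruvate kinase, read 1.80 and -0.25, 4.16-fold lower, and lay below the diet arrays (0.88 to 1.81) in AIM-/-. Ppp1r3b, the glycogen-targeting subunit of protein phosphatase 1, was lower by 1.45 and Pfkfb1 by 1.11 on the log2 scale. The glucose transporter Slc2a2 and ketohexokinase Khk differed by -0.88 and -0.84, glycogen synthase Gys2 by 0.93 and the glycogen phosphorylase Pygl by -0.60.

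**Figure D3:**
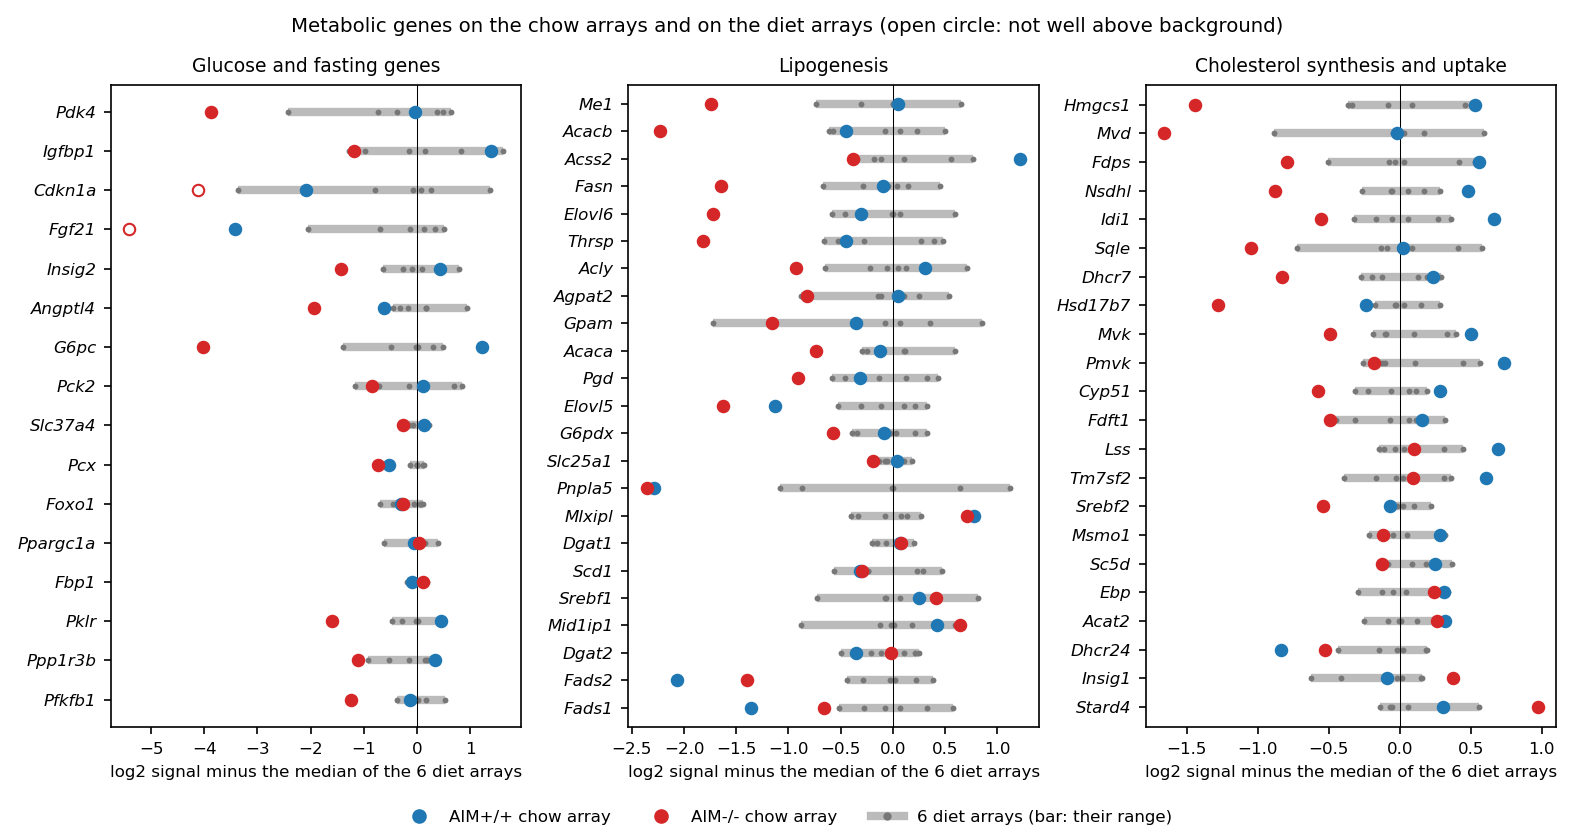
Genes of glucose and fasting, lipogenesis and cholesterol on the chow arrays (blue AIM+/+, red AIM-/-; open circles are not well above background) and the 6 diet arrays (small points, bar for the range), as log2 signal minus the median of the diet arrays. G6pc and Pdk4 in AIM-/- lie left of the bar, as do Acacb, Me1, Fasn, Elovl6, Thrsp and the cholesterol enzymes from Hmgcs1 to Dhcr7.

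Fat oxidation and ketogenesis differed less. Of 30 genes 3 were at least 2-fold lower, the fatty acid hydroxylases Cyp4a14 (-1.35), Cyp4a31 (-1.27) and Cyp4a10 (-1.14), paralogs whose probes can share signal, and 0 were higher, with a median of -0.23. These and the following counts stand beside 2.19% of all genes with signal on both arrays lower and 2.04% higher. Here both chow arrays stood apart from the diet: the AIM-/- chow array was below every diet array in 25 of the 30 and the AIM+/+ chow array in 21. Of all 12713 genes with signal on both arrays, both lay outside the diet range, on either side, in 3117. The AIM-/- one alone did so in 2650 and the AIM+/+ one alone in 1923. Of 18 lipid droplet and lipoprotein genes with signal on both arrays Plin5 (-1.26) and Mogat1 (-1.11) were at least 2-fold lower. In bile acid metabolism Cyp8b1, the sterol 12-hydroxylase, was lower by 1.75 (1.81 and 0.06), and Abcg8 and Abcg5, the paired sterol exporters, were higher by 1.31 and 1.05. Amino acid genes included Sdsl (1.47) and the cationic amino acid transporter Slc7a2 (1.22) on the higher side, with 0 of 26 at least 2-fold lower and a median of 0.28. Of 23 xenobiotic genes Cyp2c54 (-1.18), Cyp2c37 (-1.13) and Aldh1a1 (-1.07) were at least 2-fold lower. No gene of the growth hormone and IGF axis was 2-fold apart (0 of 11).

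Stress and inflammation genes went both ways. Asns, asparagine synthetase, read 2.18 and 4.41, the only one of 23 ATF4 and ER stress genes 2-fold apart, and both chow arrays were above the diet arrays (-2.38 to 1.25). Of 16 immediate early genes with signal on both arrays Egr1 (2.75), Btg2 (1.74) and Junb (1.64) were at least 2-fold higher and Gadd45g (-1.94) and Nr4a1 (-1.72) lower, and Egr3, seen in AIM+/+ alone, was at least 4.27-fold lower. Egr1 ranged from -1.50 to 4.39 over the diet arrays, which covers both its chow values (0.44 and 3.19). Hamp, the iron hormone hepcidin, was higher by 2.13 (6.24 and 8.37) while its paralog Hamp2 was lower by 1.30. The serum amyloid gene Saa2 was 2.16-fold higher and Saa3 just past 2-fold.

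Of 8 cytokine and chemokine genes with signal on both arrays 4 were at least 2-fold higher (2.04% of all such genes) and 1 lower (2.19%), with a median of 0.91. Cxcl1 read -1.22 and 0.64 and Cxcl9 0.13 and 1.98, and Cxcl10 and Ccl5 differed by 1.39 and 1.09. Ccl4, seen in AIM-/- alone, was at least 1.46-fold higher, and Cxcl13, seen in AIM+/+ alone, at least 2.27-fold lower. Il1b was lower (0.08 and -1.88). For Cxcl1, Cxcl9, Cxcl10 and Ccl5 the AIM+/+ chow array was below every diet array while the AIM-/- chow array lay within their range. Of 12 cell cycle genes with signal on both arrays Ccne1 (2.47), Birc5 (1.63) and Ccnd1 (1.09) were at least 2-fold higher and 0 lower, while 7 of the 12 were below 0 and the median was -0.03. Me1 was the only one of 11 NRF2 targets at least 2-fold apart. Of 12 male-biased genes Elovl3 and Hsd3b5 (-1.17) were at least 2-fold lower, 5 were above 0, among them Cyp7b1 (0.95), and the median was -0.05. Of 7 female-biased genes with signal on both arrays Cyp2a4 (1.09) was at least 2-fold higher, 5 were below 0 and the median was -0.42.

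Cell makeup was checked with marker lists. Apart from Cd5l itself, the 13 Kupffer cell markers differed by no more than 0.55 in size, Clec4f by 0.19, Timd4 by 0.17, Adgre1 by 0.28, Marco by 0.03 and Folr2 by -0.55. None of 10 sinusoidal endothelial, 10 stellate and fibroblast and 8 hepatocyte markers was 2-fold apart, and their medians were -0.13, -0.03 and -0.06. The summed signal of the hepatocyte markers was 4479 and 4253 times the 75th percentile in AIM+/+ and AIM-/-, with 3713 to 4721 on the diet. In bulk tissue, fewer cells of a type and less RNA per cell cannot be told apart.

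Several marker lists of other cells were largely at background. Of the neutrophil markers S100a9 (2.50 and 0.89) and S100a8 (-1.26 and -2.11) were lower in AIM-/- and 6 of 9, among them Ngp, Camp, Ltf and Mpo, were not well above background on either array. Their summed signal was 6.47 and 2.42, with 3.30 to 16.6 on the diet. Of the cholangiocyte markers Sox9 was higher in AIM-/- (-0.86 and 0.32), Spp1 differed by 0.24, and Epcam, Cftr and Cldn4 were at background on both. Krt7 (-2.42 and -4.39) and Krt19 (-2.90 and -5.19) were seen in AIM+/+ alone. Their AIM-/- values lay below the lowest signal marked well above background on that array (-3.09), so the gap is not a measured size. The summed signal of the list's 8 markers was 3.34 and 3.99, with 3.72 to 98.3 on the diet. T and NK cell markers had 6 of 10 below background on both, pancreatic acinar markers 6 of 9 and intestinal epithelium markers 8 of 11. Xist was at background on both chow arrays and the Y-linked Ddx3y, Eif2s3y and Kdm5d were well above it on both, with differences of 0.53, 0.01 and 0.02. The summed signal of these Y-linked genes was 9.39 and 11.3 on chow and ran from 0.0504 to 9.49 over the diet arrays. It was thus all but absent on at least 1 diet array. The median difference of these 3 genes between genotypes was -0.16, -0.14 and -0.33 at 6, 12 and 20 weeks. The partner of that array in the same week was therefore low in most of these genes too. With Xist and the Y-linked Uty added, no diet array summed below 2.76. Where the other Y-linked genes were all but absent, the sum thus came from Xist or Uty, neither well above background on chow. The part of sex in the range of the diet arrays was not tested. Hsd3b5, high in male liver, read 5.88 and 4.71.

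**Figure D4:**
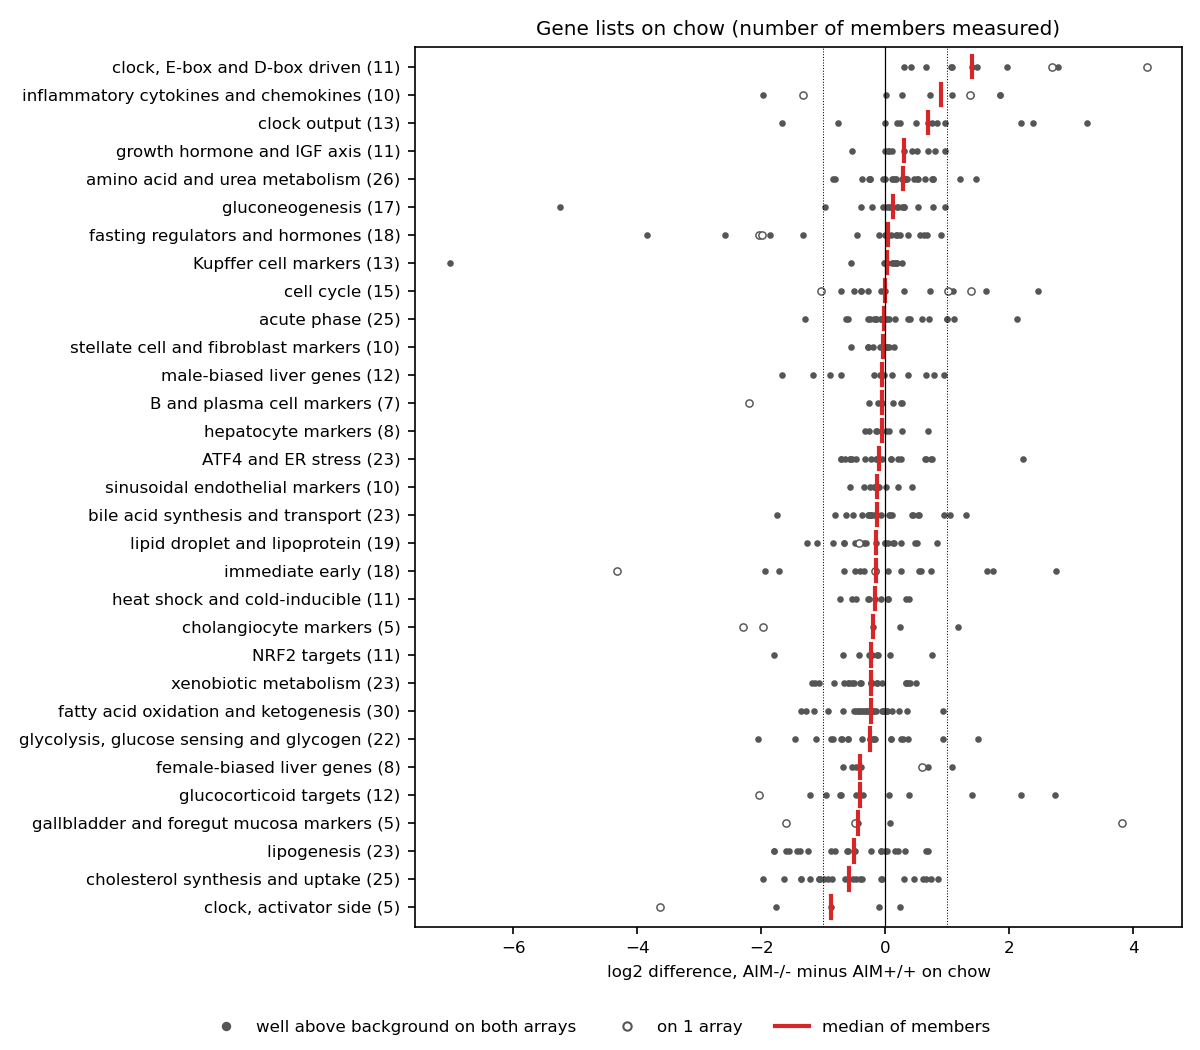
Difference between AIM-/- and AIM+/+ on chow (log2) of each measured member of the gene lists with at least 5 measured members, with the list's median in red; dotted lines mark 2-fold and open circles are well above background on 1 array. The 9 E-box and D-box driven clock genes with signal on both arrays lie right of 0, the open circle at 2.69 in that row is Bhlhe41, whose probes disagree, and the medians of cholesterol (-0.59) and lipogenesis (-0.50) lie left of 0, as does that of the row named activator side, which rests on Arntl (-0.49 without it).

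Beyond the lists, the highest gene in AIM-/- among those with signal on both arrays was Tff3, a trefoil peptide of mucosal epithelia, with -0.13 and 4.81 (30.8-fold). On the diet it ran from -3.87 to 1.06. Of 9 markers of gallbladder and foregut mucosa, Tff2, Gkn2, Cldn18 and Muc1 were at background on both arrays. Gkn1 was seen in AIM-/- alone (-5.65 and -1.82, at least 2.87-fold higher) and Tff1 in AIM+/+ alone (signal intensities of 63.4 and 23.3). Gkn3, Muc5ac and Muc6 differed by -0.43, 0.08 and -0.48. The summed signal of the 9 was 1.20 and 1.18 times the 75th percentile, with 0.874 to 1.55 on the diet, and the part of these or of the cholangiocyte markers in the value of Tff3 was not tested. Esm1, the endothelial proteoglycan endocan, read -2.03 and 2.54 (23.8-fold), and Id1, an inhibitor of helix-loop-helix factors, -0.88 and 2.55 (10.8-fold, 3.39 on its other probe). Mmd2 was higher by 3.36, the neurotrophin receptor Ntrk2 by 7.99-fold, with 3.07 on a further probe, A630001G21Rik by 2.97, Gas7 by 2.81 and the serpin Serpina9 by 2.76. Asic5, an acid-sensing channel family member, was higher by 3.53 and is taken up again among the fits.

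After Cd5l, G6pc and Pdk4 the lowest gene with signal on both arrays was Slc25a25, a mitochondrial carrier of ATP-Mg and phosphate, with 6.34 and 3.19 (8.85-fold lower). Its other probe above background gave -2.93, and the diet arrays lay between 4.30 and 6.70. Tubb2a, a beta-tubulin, read 7.84 and 5.30, and its 2 other probes gave -2.55 and -1.86. Lrfn3, an adhesion protein of synapses, read 3.53 and 0.92, and Tmie, a transmembrane protein first known from the inner ear, 2.74 and 0.01. Asap2 (-2.93), Pdzrn3 (-2.77), Dnajc5b (-2.75), Gask1a (-2.72) and Cdca7 (-2.67) were also among the 12 lowest with signal on both arrays.

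Among genes well above background on 1 of both arrays, the largest bounds were those of Moxd1, a copper monooxygenase family member (at least 124-fold higher), Ciart, Wfdc12 (at least 14.2-fold) and Ripor3 (at least 14.0-fold). Moxd1 read 3.61 on AIM-/- chow, 0.75 on the AIM+/+ array at 6 weeks and between -5.69 and -5.23 on the 6 other arrays. The second probe of Ripor3 differed by 0.07 at background. On the lower side stood 4930469K13Rik (at least 13.5-fold), Sorcs3 (at least 12.9-fold), Dlg4 (at least 11.3-fold) and Dact1 (at least 10.3-fold).

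Genes seen on 1 array alone need care here. Of the 1077 genes at least 2-fold apart with signal on 1 chow array, 526 were well above background on no other of the 8 arrays. Every array had such probes: 13 to 52 per array read above -1 on that array and were well above background on no other, and 82.4% to 100% of them were printed in the middle band of the array's rows, which holds 33.6% of all probes. Of the adipocyte markers, Adipoq and Lep were at background on both chow arrays. Among the 2 with signal on both, 0 were higher in AIM-/- and 1 was at least 2-fold lower, against 2.19% of all genes with such signal. The adipocyte lipid droplet gene Plin1 (-4.72 and 0.34, at least 12.9-fold higher) and 4930469K13Rik were seen on 1 array alone. The part of the position on the array in these values was not tested.

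To set the chow difference against a spread between arrays, a linear model was fitted in limma with 4 cells (AIM+/+ or AIM-/-, chow or any week of diet) and 4 residual degrees of freedom, in which each lone chow array is assumed to vary like the 3 diet arrays of its genotype. Y-linked signal was nearly absent on at least 1 diet array and low in most of these genes on its partner of the same week. This was not in the model, and its part in that spread was not tested. At a Benjamini-Hochberg adjusted p under 0.05 over all genes kept, 342 genes passed (2.36%), 130 higher and 212 lower, and 1359 had an unadjusted p under 0.05. Of the 342, 282 were well above background on 1 of the 8 arrays alone, such as Tmprss15 and Olfr514 (-5.57 on AIM+/+ chow, 0.20 on AIM-/- chow and -5.95 to -5.39 elsewhere). Genes that sit at the floor on the other arrays have almost no spread there. Among genes well above background on both chow arrays 31 passed, 16 higher and 15 lower.

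These 31 calls depended on the dim genes being in the fit. When only genes well above background on both chow arrays were fitted, Cd5l alone passed (610 genes had an unadjusted p under 0.05), and the same number passed with normexp background correction. Without the 12-week arrays 0 genes passed in limma (1293 at an unadjusted p under 0.05), Cd5l included (adjusted p = 0.0524). The genes below are given with this limit. Cd5l was lower in AIM-/- (-7.02, SE 0.34, limma adjusted p = 0.0027), with adjusted p from 0.000234 to 0.0524 over 15 alternatives.

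Dbp (2.79, SE 0.32, limma adjusted p = 0.00894) and G6pc (-5.24, SE 0.84, limma adjusted p = 0.0321) were the genes of the clock and glucose lists that passed with signal on both arrays. Their calls held in 10 and 6 of 15 alternatives, with highest adjusted p of 0.134 and 0.274. This model counts a change over the weeks that both genotypes share as spread. With week of diet as a block, a fit chosen after seeing the data that leaves 2 residual degrees of freedom, limma called 420 genes, 44 of them with signal on both chow arrays. There Nfil3 (adjusted p = 0.0255), the cholesterol enzyme gene Hmgcs1 (adjusted p = 0.0269) and Sdsl (adjusted p = 0.0353) passed beside Cd5l, Dbp and G6pc, and no gene of lipogenesis, fasting, oxidation or glycolysis passed in either fit. Blocked and limited to genes with signal on both chow arrays, Cd5l alone passed in limma (1160 at an unadjusted p under 0.05).

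Higher in AIM-/- with the smallest p were Cyp46a1, the cholesterol 24-hydroxylase (-1.40 and 0.93, with -1.67 to -1.33 on the diet), then Dbp, Sipa1l2, Cby2, Wars2, Gvin1, Asic5, Pigw, Tex44 and Arhgap6. Lower in AIM-/-, after Cd5l, were Dand5, an antagonist of nodal and BMP signals (0.33 and -1.83, with -1.86 to -1.57 on the diet), Pdzrn3, Slc45a3, Prss37, Ptar1, Asap2, the histone gene H2bc21, G6pc and Cdca7. For Dand5, Prss37 and Ptar1 it was the AIM+/+ chow array that stood above the rest by over 1 unit. For Cyp46a1 and Arhgap6 it was the AIM-/- one.

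The interaction, which asks whether the difference on chow is unlike that on the diet, passed for 248 genes (1.71%) in limma, 15 of them with signal on both chow arrays and 220 well above background on 1 of 8 arrays alone. All 15 were among the 31 above. It passed for Dbp (3.09, SE 0.37, limma adjusted p = 0.0155), whose differences at 6, 12 and 20 weeks were -0.66, -0.19 and -0.07. It did not pass for G6pc (-4.86, SE 0.97, limma adjusted p = 0.0946), with 0.28, -0.90 and -0.52, but did with week as a block (limma adjusted p = 0.025). Asic5 and Wars2 differed in every week, Asic5 by 3.53 on chow, down to 2.93 at 20 weeks, and Wars2, which charges mitochondrial tRNA with tryptophan, by 2.45, 1.94, 2.17 and 2.56. H2bc21 was lower in each, by between -1.79 on chow and -0.73 at 20 weeks. The probes of Asic5 (chr3:82100360-82105375), H2bc21 (chr3:96308863-96308922) and Wars2 (chr3:99348148-99348207, all mm8) lie on the chromosome of Cd5l. Whether these differences go with the loss of AIM or with the place near the targeted gene was not tested and cannot be told apart here.

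**Figure D5:**
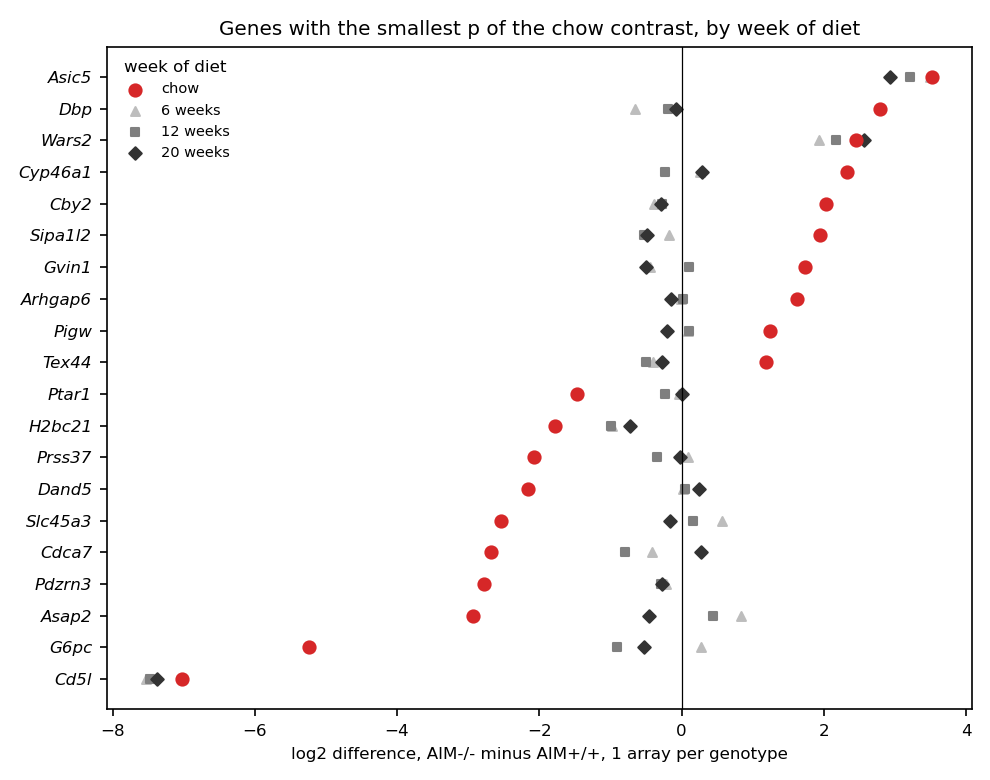
Difference between AIM-/- and AIM+/+ (log2, 1 array per genotype) on chow and at each week of diet, for the 20 genes with signal on both chow arrays and the smallest p of the chow contrast, 10 higher and 10 lower. For Cd5l, Asic5 and Wars2 the 4 points lie together, and for Dbp, Cyp46a1, Dand5 and G6pc the chow point stands alone.

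The differences on chow were set beside those of each week of diet, as a description, since 1 array per group does not part a difference of chow from variation between arrays. Of the 538 genes at least 2-fold apart with signal on both arrays, 60 had the same sign in all 4 pairs (11.2%), close to the 11.7% of all 12713 genes. The chow difference was the largest of the 4 in size for 449 of the 538, a share that choosing them on chow favours, and for 31.8% of all 12713. Genes at least 2-fold apart with signal on both arrays of the pair made up 4.24% on chow, 3.72% at 6 weeks, 2.12% at 12 weeks and 2.16% at 20 weeks. The medians of the 9 E-box and D-box genes were 1.08 on chow and -0.27, -0.16 and -0.07 at 6, 12 and 20 weeks. Those of lipogenesis were -0.50, 0.16, -0.48 and 0.25, and those of cholesterol -0.59, -0.05, -0.30 and 0.28.

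The diet arrays also show which chow liver is the one apart, as a description. Of the 538 genes, the AIM+/+ chow array alone lay outside the range of the 6 diet arrays for 144, the AIM-/- chow array alone for 182, both for 155 and neither for 57. Over all 12713 genes these counts were 1923, 2650, 3117 and 5023. Dbp, Tef, Nr1d2, Noct and G6pc were of the third kind and Per2 of the first. Pdk4, Insig2, Pklr and 6 of the 7 lipogenesis genes were of the second. Arrays on the diet differ from chow by diet and by time passed. At least 1 of them, with its partner of the same week, differs also by low Y-linked signal. This order therefore says where the values lie and not which liver was usual for chow.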

How the data were processed

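Liver RNA was hybridised to one-colour Agilent Whole Mouse Genome arrays, 1 per genotype and time. The intensity of each spot was background-subtracted by the authors' scanner software, Feature Extraction from Agilent, version 9.5 in the submitters' processing notes and 9.5.3.1 per the file headers. The deposited value table holds log2 values that matched the log2 processed signal minus each array's 75th percentile, and served as an alternative only.

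Left out were 1639 control spots and the spots marked as outliers, which numbered 75 to 130 on each array. Repeat spots were averaged and log2 values scaled to the 75th percentile. A gene was its probe with the highest mean over 8 arrays. Of 41174 probes, 24487 were named by accession, 6235 by name and 2392 by synonym through a RefSeq table, and 8060 kept the file's name. Probe coordinates are mm8, from the array files. Folds against a dim array are bounds from the lowest signal marked well above background there. limma 3.58.1 in R 4.3.3 gave the fits, which were tested on simulated data.

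The members, the gene lists and the alternatives were chosen with earlier results of these data known. Named were Cd5l, the 12 largest differences each way with signal on both arrays, the 4 largest bounds each way, list members at least 2-fold apart, any member of the clock, gluconeogenesis, fasting, lipogenesis and cholesterol lists, and up to 10 genes each way that passed a fit. The last were limited, after their values were seen, to genes well above background on both chow arrays. Nothing says that samples came from separate animals, so the p-values cover only the spread among these arrays. Some members of the lists are not reported here by name, but count in the list totals and medians.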

Additional observations from a re-analysis of the deposited data

Results flagged for a closer look

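For 10 named genes the difference between AIM-/- and AIM+/+ on chow was unlike that on the diet by the interaction in limma (adjusted p under 0.05 over all genes kept). It was higher on chow for Dbp (3.09, SE 0.37, adjusted p = 0.0155), Cyp46a1 (2.22), Sipa1l2 (2.35), Cby2 (2.35), Tex44 (1.58) and Gvin1 (2.01), and lower for Dand5 (-2.27, SE 0.26, adjusted p = 0.0138), Slc45a3 (-2.73), Pdzrn3 (-2.51) and Asap2 (-3.20). In Tex44, Sipa1l2, Gvin1 and Dbp the AIM+/+ chow array was below and the AIM-/- chow array above every diet array, and in Asap2 and Slc45a3 the reverse. Each of these calls ended when only genes well above background on both chow arrays were fitted, where 0 genes passed (498 at an unadjusted p under 0.05), and their adjusted p reached 0.357 to 0.388 over 15 alternatives.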

How the results depend on the processing

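Counts of genes at least 2-fold apart, 1615 in all with 625 higher and 990 lower, followed the filter. They were 564, 258 and 306 with normexp, 539, 259 and 280 with signal required on both chow arrays, and 470, 214 and 256 with signal on all 8, an alternative chosen after seeing the data. They were 2815, 1138 and 1677 with no filter, 3022, 1197 and 1825 at 1.5-fold and 1005, 415 and 590 at 3-fold. The median of the E-box and D-box list, 1.40, was 1.003 with normexp, 1.08 with signal on both arrays and 1.08 with the mean over probes. That of the list of Arntl, Clock and Nfil3, -0.87, was -0.49 with signal on both arrays and -0.10 with no filter. That of the fasting list was 0.13 with signal on both and 0.15 with the mean over probes, and that of cholesterol -0.44 with the mean over probes.

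The chow contrast in limma, 342 genes, called 1 gene with normexp, 1 with signal on both arrays, 1 with signal on all 8 and 93 with a mean-variance trend, and the interaction, 248 genes, called 0 under each of these and 107 with no filter. The contrast called 213 genes without the 6-week pair, 0 without the 12-week pair and 327 without the 20-week pair, and the interaction 0, 0 and 227.

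Directions that reversed under normexp were those of Bhlhe41 (-2.36) and the pancreatic list (-0.042). With the mean over probes they were Bhlhe41 (-1.28), Aqp9 (-0.053), Gk (-0.045), Rbm3 (-0.95), Fkbp5 (0.31) and the pancreatic list (-0.83). With no filter they were the immediate early (0.054), female-biased (0.30), cholangiocyte (0.0094), intestinal (0.17) and gallbladder (0.0805) lists, and with signal on both arrays the cholangiocyte list (0.24). The cause was not tested.

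The labels pair the genotypes by week of diet only, and the main fit did not use that pairing. Pairing the genotypes by week, chosen after seeing the data, the contrast called 420 genes and the interaction 315, and 1 and 0 with signal on both chow arrays required as well. With 1 array per group the number of arrays limits precision, and signals near background limit 1077 of the 1615 differences.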
